A study of Homo sapiens with 9 samples.

Results

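The genes examined here encode the subunits of the nuclear RNA polymerases I, II and III. They were chosen by annotation, as the protein coding genes whose symbol begins with POLR1, POLR2 or POLR3, and 31 such genes are described, of the 51111 in the PABPN table and of the 51268 in the PABPC table. The naming rule itself uses no measured value. All 31 genes were listed in both tables and passed the filter on low signal (a mean above 50 normalised reads). By assembly, 6 belong to pol I only, 9 to pol II, 9 to pol III and 7 are shared between polymerases. The large catalytic subunits are POLR1A, POLR1B, POLR2A, POLR2B, POLR3A and POLR3B, and the remaining 25 genes are called small here.

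All libraries came from wildtype HEK293T cells, an established line of human embryonic kidney origin, treated with 0.1% formaldehyde for 10 min to crosslink proteins to RNA. Lysate was immunoprecipitated with an antibody against the nuclear (PABPN) or the cytoplasmic (PABPC) poly(A) binding protein, an assay called RIP, and 3 PABPN RIPs, 3 PABPC RIPs and 3 inputs were sequenced after removal of ribosomal RNA. Input is total RNA of the same lysates without immunoprecipitation, and it is the control for both RIPs. Values per library were not analysed here, so each gene is described by its group means, its log2 fold change of RIP over input and the standard error (SE, 3 RIP against 3 input libraries) from the authors' deposited DESeq2 fit. A p-value sets a fold change, or a difference between fold changes, against its SE, which rests on the spread between these libraries. Both comparisons rest on the same inputs, and the tables were normalised separately. The reads assigned to the listed genes, estimated from the deposited means of genes with a single read, numbered 36.5 to 52.2 M per library, which is not the total sequenced. The neurofilament genes NEFM and NEFL, which HEK293T cells are known to transcribe, had input means of 66400 and 19400 normalised reads. The other HEK293T markers examined were lower, with LHX1 at 459, PAX2 at 294 and INA at 259. Of the markers of other cell types, PTPRC (leukocyte) had 0.693, MYH7 (muscle) 1.38, ALB (hepatocyte) 5.04 and EPCAM (epithelium) 37.5. The fibroblast marker COL1A1 had 304, above PAX2 and INA, so the markers did not separate fully. A bulk RIP sums over all cells, so fewer cells carrying a message and less of it per cell cannot be told apart.

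Pol I transcribes the large ribosomal RNA precursor, pol II the messenger RNAs and most small nuclear RNAs, and pol III the transfer RNAs and the 5S ribosomal RNA. In each enzyme the largest and the second largest subunit together form the active centre, and small subunits build the assembly platform, the stalk, the jaws and the initiation modules around it. The messages of all these subunits are themselves made by pol II and polyadenylated. In the prevailing model PABPN binds tails before export, and PABPC after the message reaches the cytoplasm. Both proteins shuttle between the compartments, and the paper allows that both may sit on the same RNA. These RIPs were made from total lysate.

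The distinction between large and small subunits rests on the active site. The stretch that encodes the loop holding the catalytic magnesium is shown for the 3 largest subunits, read from the hg38 genome 5′ to 3′ along the coding strand, with the aspartate codons in capitals.
POLR1A: aatgccGACtttGATggaGAC
POLR2A: aatgcaGACtttGACgggGAT
POLR3A: aatgctGACtttGATggtGAT
These stretches lie at chr2:86070108-86070128 (minus strand, exon 13 of 34), chr17:7499297-7499317 (plus strand, exon 10 of 30) and chr10:78013713-78013733 (minus strand, exon 11 of 31). POLR1A and POLR2A share 17 of the 21 bases, and POLR3A shares 18 with either. POLR2A alone goes on into a tail of heptad repeats, the C-terminal domain that is phosphorylated during transcription. Its first exact consensus repeat, shown because it is what sets this largest subunit apart from the other two, lies at chr17:7513107-7513127 in exon 29.
POLR2A heptad: tattcccccacttcaccctcc
The coding sequence held 21 exact copies of the consensus heptad at the protein level.

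With PABPC, 19 of the 31 subunit messages were enriched and 3 were depleted. A gene was called enriched above a log2 fold change of 0.5 and depleted below -0.5, with an adjusted p of at most 0.01 in the DESeq2 fit. Those shares were 61.3% and 9.68%, against 38.4% enriched and 32.4% depleted among all 14843 genes that could pass, and 41.2% and 27.9% among protein coding genes. The median log2 fold change was 1.44 for the subunits and 0.14 for all genes tested. All 19 enriched messages encode small subunits.

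With PABPN, 0 of the 31 were enriched and 11 were depleted (35.5%). Among all 15526 genes that could pass, 17.5% were enriched and 14.6% depleted, and among protein coding genes 15.1% and 16.5%. At an unadjusted p under 0.05 in DESeq2, 0 subunit messages were higher and 17 lower in PABPN RIP than in input. The median was -0.33, against -0.04 for all genes tested, and the values ran from -1.41 for POLR2A to 0.29 for POLR3G. A Wald test against a change of 0.5 called 3 depleted (POLR2A, POLR2L and POLR2I), as did a threshold of 1. The remaining 8 depleted messages lay between -0.88 and -0.60. No value was above 0.5, so that test could not have called any message enriched.

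The difference between the RIPs was tested directly for each gene, with its error taken from both SEs and adjustment over 14581 genes. It was called for 23 of the 31: 22 messages were higher with PABPC (71.0%, against 33.4% of all and 37.8% of protein coding genes) and 1, POLR2J3, was higher with PABPN (3.23%, against 36.1% and 30.6%). Because the shared input is counted in both errors, this error is too large rather than too small. The median difference was -1.54, and 0.068 over all genes.

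**Figure D1:**
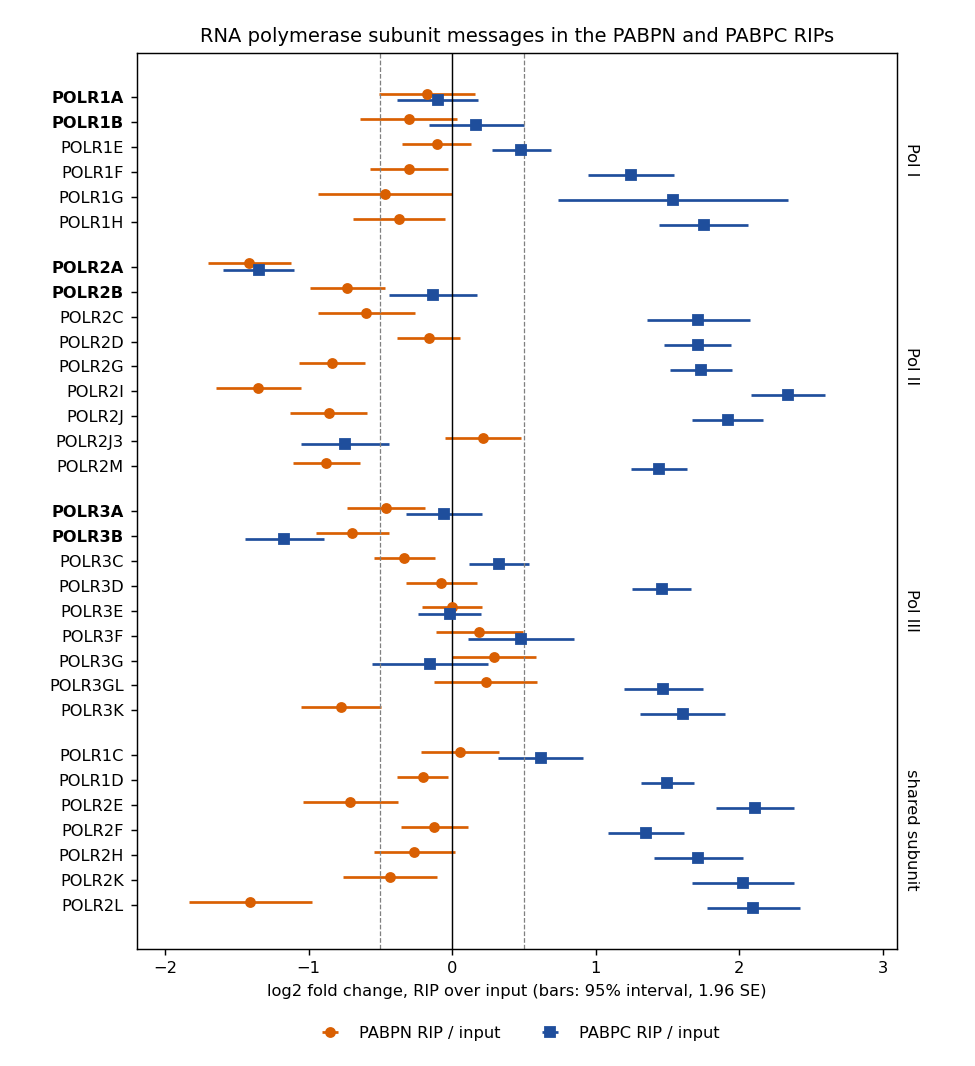
Log2 fold change of RIP over input (horizontal axis) for each of the 31 subunit genes, grouped by polymerase, with points for PABPN and PABPC RIP and bars of the 95% interval, with dashed lines at the threshold of 0.5 and bold names for the large subunits. Most small subunits (19 of 25) have their PABPC point to the right of the upper dashed line, while the large catalytic subunits have both points at or below 0 apart from POLR1B with PABPC (0.17).

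The large catalytic subunits did not share the enrichment with PABPC. Of these 6 messages, 0 were enriched and 2 were depleted, POLR2A and POLR3B, with a median of -0.12, and 0 were higher at an unadjusted p under 0.05 in DESeq2. Their depleted share, 33.3%, lay near the 32.4% of all genes tested. Of the 25 small ones, 19 were enriched (76.0%, against 38.4% of all genes tested) and 1 depleted, with a median of 1.50. With PABPN, 3 of the 6 large and 8 of the 25 small messages were depleted, with medians of -0.58 and -0.30. These are counts and medians over genes, which are not replicates, and no test was made between the classes. With large defined by a deposited exonic length above the members' median instead of by the active site, the medians with PABPC were 0.17 and 1.66.

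POLR2A, the largest pol II subunit, had the lowest value in both RIPs, but not beyond the errors: POLR2L and POLR2I lay within them in PABPN RIP, and POLR3B in PABPC RIP. The gene lies at chr17:7484366-7514616 on the plus strand. Its mean was 17011 normalised reads in input and 6383 in PABPN RIP, and 14554 and 5716 in the PABPC table, which left 37.5% and 39.3% of the input level. The log2 fold changes were -1.41 ± 0.15 (SE) with PABPN and -1.35 ± 0.13 with PABPC, with adjusted p of 4.31e-20 and 2.24e-25 in DESeq2. Between the RIPs it differed by -0.066, with a 95% interval of -0.45 to 0.32.

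POLR3B, the second largest pol III subunit (chr12:106357748-106510198, plus strand), was also below input in both RIPs. Its means were 4386 in input and 2708 in PABPN RIP, and 3753 and 1669 in the PABPC table. The log2 fold changes were -0.70 ± 0.13 and -1.17 ± 0.14. It lay nominally lower with PABPC than with PABPN, by 0.47 with a 95% interval of 0.099 to 0.85, which fell short of the threshold (adjusted p = 0.0179, normal test of the difference over all genes).

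POLR2B, the partner of POLR2A in the pol II active centre, was depleted with PABPN (-0.73 ± 0.13) and not called with PABPC (-0.13 ± 0.16). It is the large subunit whose RIPs differed (-0.60, adjusted p = 0.00534, normal test). Its mean fell from 8701 in input to 5246 normalised reads in PABPN RIP, against 7446 and 6783 in the PABPC table. The other large subunits passed neither comparison. POLR1A, the largest pol I subunit, had -0.17 ± 0.17 with PABPN and -0.10 ± 0.14 with PABPC, and POLR1B, the second largest, -0.30 ± 0.17 and 0.17 ± 0.17. POLR3A, the largest pol III subunit, had -0.46 ± 0.14 and -0.058 ± 0.14, and its PABPN value lay just outside the threshold of -0.5 at an adjusted p of 0.0032 in DESeq2. The 95% intervals of the difference were -0.51 to 0.36 for POLR1A and -0.94 to 0.0033 for POLR1B, and differences within these bounds were not detectable at this precision. POLR3A lay nominally lower with PABPN, by a difference of -0.40 with an interval of -0.79 to -0.022, which fell short of the threshold (adjusted p = 0.0492, normal test).

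The subunits common to all polymerases were among the small ones enriched with PABPC. POLR2E, POLR2F, POLR2H, POLR2K and POLR2L are built into every one of the enzymes. All 5 messages were enriched with PABPC, against 38.4% of all genes tested, with a median of 2.03. This was not particular to them. The assembly platform, zinc ribbon and stalk messages described below were also all enriched, with medians of 1.61, 1.75 and 1.71. POLR2L (chr11:837356-842529, minus strand), a small zinc-binding subunit, had means of 1398 in input and 528 normalised reads in PABPN RIP, and of 1197 and 5129 in the PABPC table. It was reduced to 37.7% of input in one RIP and raised 4.29-fold in the other. Its log2 fold changes were -1.41 ± 0.22 and 2.10 ± 0.16. POLR2E, which contacts downstream DNA, had -0.71 ± 0.17 and 2.11 ± 0.14, so it too was depleted with PABPN and enriched with PABPC. For the other common subunits only the enrichment with PABPC was called. POLR2K, another small zinc-binding subunit, had -0.43 ± 0.17 and 2.03 ± 0.18, POLR2H -0.26 ± 0.14 and 1.72 ± 0.16, and POLR2F -0.12 ± 0.12 and 1.35 ± 0.13.

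The assembly platform is the pair of subunits on which the catalytic ones are mounted, POLR2C with POLR2J in pol II and POLR1C with POLR1D in pol I and III. All 4 messages were enriched with PABPC. POLR2C had -0.60 ± 0.17 with PABPN and 1.71 ± 0.18 with PABPC, and POLR2J -0.86 ± 0.14 and 1.92 ± 0.13, so both pol II members were depleted with PABPN. POLR1D had -0.21 ± 0.091 and 1.50 ± 0.093, and POLR1C 0.056 ± 0.14 and 0.62 ± 0.15, and neither was called with PABPN. POLR1C had the lowest of the called enrichments with PABPC, and POLR1E, with 0.48, the highest value that missed the threshold.

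The zinc ribbon subunits, which take part in RNA cleavage by each polymerase, included the widest split of all members. POLR2I (chr19:36113709-36115213, minus strand) had means of 1150 in input and 450 normalised reads in PABPN RIP, and of 983 and 4975 in the PABPC table. It fell to 39.2% of input with PABPN and was raised 5.06-fold with PABPC, with log2 fold changes of -1.35 ± 0.15 and 2.34 ± 0.13. The difference between the RIPs was -3.69 with a 95% interval of -4.08 to -3.30. The pol III counterpart POLR3K also moved in opposite directions, with -0.78 ± 0.14 and 1.61 ± 0.15. The pol I counterpart POLR1H had -0.37 ± 0.16, not called, and 1.75 ± 0.16, enriched.

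The stalk subunits project from the enzyme beside the exit of the transcript, and the 3 messages described were enriched with PABPC. In pol II, POLR2G had -0.84 ± 0.12 with PABPN and 1.74 ± 0.11 with PABPC, and its partner POLR2D -0.16 ± 0.11 and 1.71 ± 0.12. POLR2G was thus depleted with PABPN while POLR2D was not called. POLR1F of pol I had -0.30 ± 0.14 and 1.24 ± 0.15.

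Pol I and pol III carry built-in subunits related to the initiation factor TFIIF, and here the messages were split. POLR1G and POLR3D were enriched with PABPC, at 1.54 ± 0.41 and 1.46 ± 0.10, while POLR1E (0.48 ± 0.10) was not called and POLR3E lay at -0.019 ± 0.11. With PABPN none of these 4 was called or reached an unadjusted p under 0.05 in DESeq2, with -0.47 ± 0.24 for POLR1G, -0.076 ± 0.13 for POLR3D, -0.11 ± 0.12 for POLR1E and -0.0023 ± 0.11 for POLR3E. POLR3E was at 99.8% and 98.7% of input, the message nearest to its input level in both RIPs, and its RIPs differed by 0.016 with a 95% interval of -0.29 to 0.32. The SE of POLR1G with PABPC was the largest among the members, and its enrichment was not called by a Wald test against 0.5.

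Of the 4 messages for the initiation trimer of pol III, 1 was enriched with PABPC, POLR3GL, and 0 were depleted with PABPN. Among all genes tested 38.4% were enriched with PABPC and 14.6% depleted with PABPN. Counts over 4 genes do not set the group apart from these shares. POLR3C had -0.33 ± 0.11 with PABPN and 0.33 ± 0.11 with PABPC, and POLR3F 0.19 ± 0.15 and 0.48 ± 0.19. POLR3G and POLR3GL are paralogues that occupy the same position in alternative forms of the enzyme, and their values with PABPC were far apart. POLR3G had 0.29 ± 0.15 with PABPN and -0.15 ± 0.20 with PABPC, and POLR3GL 0.23 ± 0.18 and 1.47 ± 0.14. The mean of POLR3GL rose from 308 normalised reads in input to 855 in PABPC RIP, and that of POLR3G was 2255 and 2026. The difference between the RIPs was called for POLR3GL (-1.24) and POLR3C (-0.66) and not for POLR3F (-0.29, interval -0.77 to 0.19) or POLR3G (0.45, interval -0.052 to 0.95).

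POLR2M, also called Gdown1, associates with pol II rather than being a core subunit, and it moved like the small pol II subunits, with -0.88 ± 0.12 with PABPN and 1.44 ± 0.10 with PABPC. POLR2J3 is a recent copy of POLR2J at chr7:102562133-102572583 on the minus strand. It was the exception among the small messages, with 0.21 ± 0.14 with PABPN and -0.75 ± 0.16 with PABPC. It was depleted with PABPC and was the member whose difference favoured PABPN (0.96, interval 0.56 to 1.37). Its means were 346 and 402 normalised reads in the PABPN table and 296 and 176 in the PABPC table. Of the stretches of 75 bases, the read length, in exons of POLR2J3, 21.1% also occur in another gene of the POLR2J family, and 28.7% of those in POLR2J do. Entries with the same symbol were pooled for these shares. Stretches shared between entries named POLR2J3 were therefore not counted, and 21.1% may be too low for the entry described. Both genes' values are therefore uncertain, since the counting could divide such reads between the copies or leave them out. In GENCODE release 44 all exon bases of POLR2J3 lie under other entries, among them SPDYE2 and a second entry that carries the same symbol, so its value may not belong to a single gene.

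**Figure D2:**
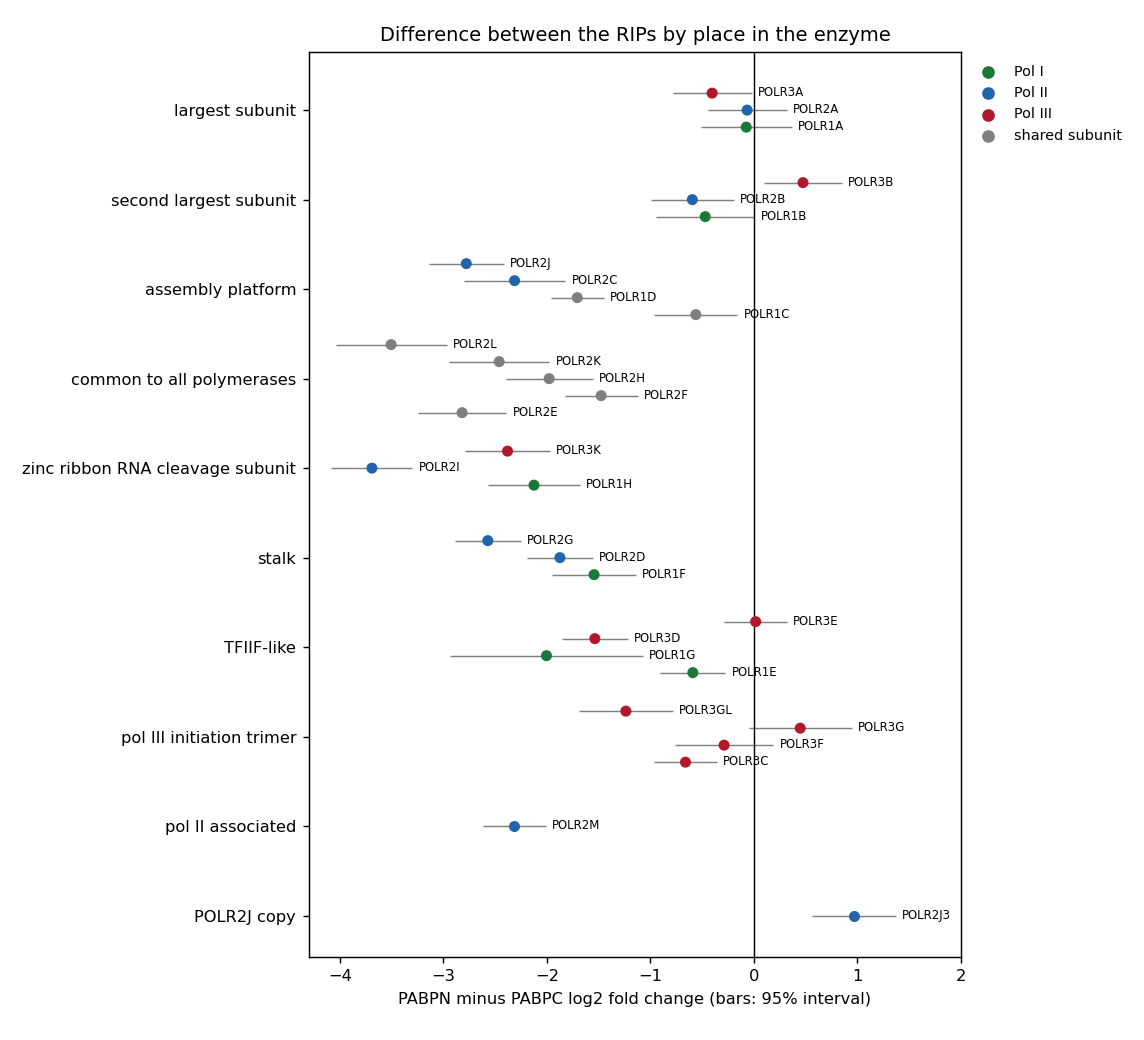
Difference between the RIPs (PABPN minus PABPC log2 fold change, horizontal axis) for the 31 genes, arranged by place in the enzyme and coloured by polymerase, with bars of the 95% interval. The largest and second largest subunits lie between -0.60 and 0.47, the assembly platform, common, zinc ribbon and stalk subunits all lie between -3.69 and -0.56, a range that POLR2B at -0.60 shares with them, and POLR2J3 lies at 0.96.

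The count of messages depleted with PABPN varied between the polymerases, which were not tested against each other. Over all genes 14.6% were depleted with PABPN, and 38.4% were enriched and 32.4% depleted with PABPC. The shares of pol III depleted with PABPN (22.2%) and enriched with PABPC (33.3%) lay near that background. Its share depleted with PABPC was 11.1%, or 1 of 9. The PABPN counts of pol I (0 of 6) and of the shared subunits (2 of 7) are too small to set apart from 14.6%. Of the pol II messages 7 of 9 were depleted (median -0.84), of pol III 2 of 9 (-0.076), of the shared subunits 2 of 7 (-0.26) and of pol I 0 of 6 (-0.30), where 2 were lower at an unadjusted p under 0.05 in DESeq2. With PABPC, 6 of 9 pol II messages were enriched and 2 depleted (median 1.71), 3 of 9 pol III messages enriched and 1 depleted (0.33), 3 of 6 pol I messages enriched (0.86), and 7 of 7 shared ones enriched (1.72). The contrast of large and small held within each enzyme with PABPC. The median of the small subunits was above that of the large ones by 1.36 in pol I, 2.45 in pol II and 1.09 in pol III. In pol I 4 of 4 small messages lay above both large ones, in pol II 6 of 7, the exception being POLR2J3, and in pol III 6 of 7, the exception being POLR3G. With PABPN the same differences of medians were -0.097, 0.24 and 0.58, of both signs.

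The annotation limits some of these values. In GENCODE release 44, POLR1C, POLR1G, POLR1H, POLR2I and POLR2J3 have over 50% of their exon bases under another gene entry. Entries on either strand and their introns were included. The authors removed shared stretches from their own annotation before counting, and how much of these genes was removed is not known here. Without these 5 genes, 15 messages remained enriched and 2 depleted with PABPC and 10 depleted with PABPN, and the pol I median with PABPC was 0.32 in place of 0.86.

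Levels were compared between genes per kilobase of exon, with the reservation that reads in introns were counted too. No correction was made to the exonic length for stretches shared with other genes, which the authors removed before counting. In GENCODE release 44, 77.2% of the exon bases of POLR2I, 32.1% of those of POLR2L and all of those of POLR2J3 lie under another gene entry. Entries on either strand and their introns were included. The authors used their own annotation, so these shares do not measure what was removed, and POLR2J3 still had reads. Whether the levels of these genes are understated was not tested, so their place in the order is uncertain. In input POLR2A was the highest, at 2036 normalised reads per kilobase in the PABPN table, followed by POLR2B at 1477, POLR2L at 1242 and POLR2I at 1011, and POLR2J3 the lowest at 48.2. In PABPC RIP POLR2L (4555) and POLR2I (4376) were above all other members, and POLR2A was at 684. Summed over the genes, without length scaling, the large subunits made up 53.4% of the reads on these subunit genes in input, 46.3% in PABPN RIP and 25.0% in PABPC RIP. The summed reads of the large subunits were 0.622 of input with PABPN and 0.737 with PABPC, and those of the small subunits 0.83 and 2.54.

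**Figure D3:**
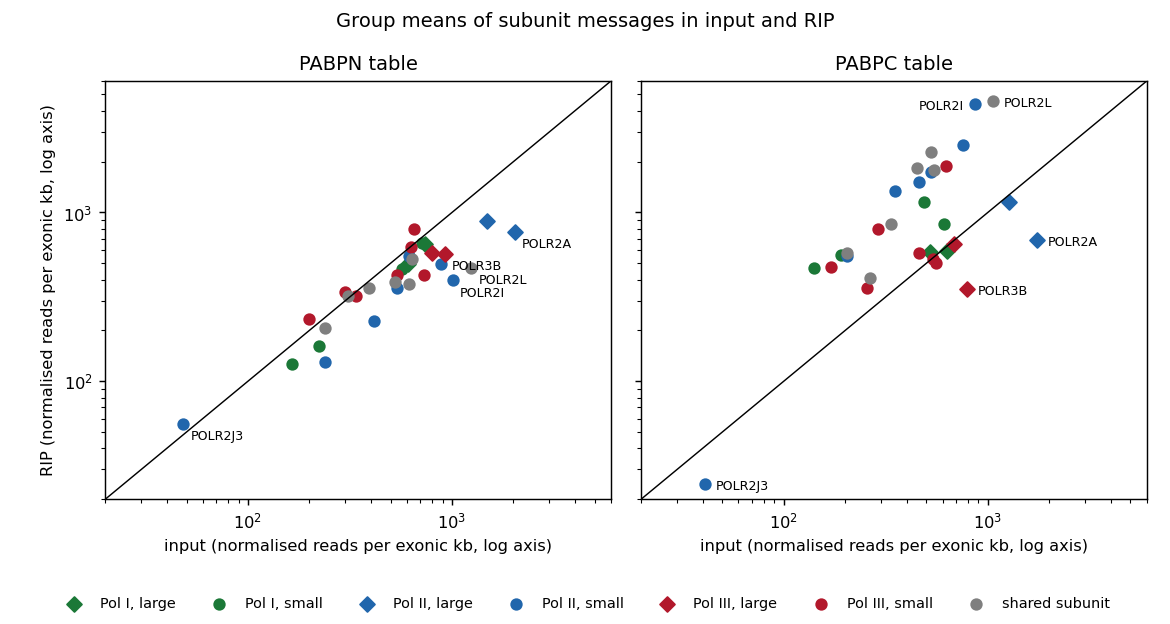
Group means of the 31 genes in input (horizontal axis) and RIP (vertical axis), in normalised reads per exonic kilobase on log axes, for the PABPN and the PABPC table, with diamonds for large and circles for small subunits. In the PABPC panel most circles lie above the line of equal level and POLR2A, POLR3B and POLR2J3 below it, and in the PABPN panel most points lie on or below the line.

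The rule that chose the genes did not use their length, which moved with the classes. The coding sequences of the large subunits span 3399 to 5910 bases (median 3846) and those of the small ones 174 to 2124 (median 630.0), by the GENCODE release 44 reference transcript of each gene. Over the 31 genes the PABPC fold change had a Spearman correlation of -0.706 and a Pearson correlation of -0.733 with log2 coding length, and over the 25 small ones alone the values were -0.568 and -0.462. Among 12572 protein coding genes the same correlations were -0.534 and -0.483. With PABPN they were 0.0593 and 0.00814 over the 31 genes, 0.337 and 0.369 over the 25 small ones alone, and 0.061 and 0.10 over 12789 protein coding genes. These are descriptions across genes of the same libraries, and genes are not independent replicates.

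Protein coding genes with coding lengths within the range of each class were set beside it, without matching of length inside the range. The range of the small subunits is wide, from 174 to 2124 bases around their median of 630.0. Of the 1063 genes with coding sequences in the range of the large subunits, 6.3% were enriched and 58.6% depleted with PABPC, with a median of -0.74. Of the 8881 in the range of the small ones, 53.2% were enriched and 19.1% depleted, with a median of 0.61. With PABPN, 9.85% of the 1097 genes in the longer range were depleted (median -0.11) and 18.3% of the 9003 in the shorter range (median -0.075), beside 3 of 6 large and 8 of 25 small subunits. With PABPC, the large subunits' counts (0 and 2 of 6) and median (-0.12) and the small subunits' counts (19 and 1 of 25) and median (1.50) stand beside these. Intron length moved with the fold change as well, with a Spearman correlation of -0.651 over the 31 genes and -0.764 over protein coding genes with PABPC. The large genes hold 21896 to 147683 intronic bases and the small ones 368 to 111133. The part of coding length, of intron length and of unspliced reads in the difference between the classes was not tested.

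**Figure D4:**
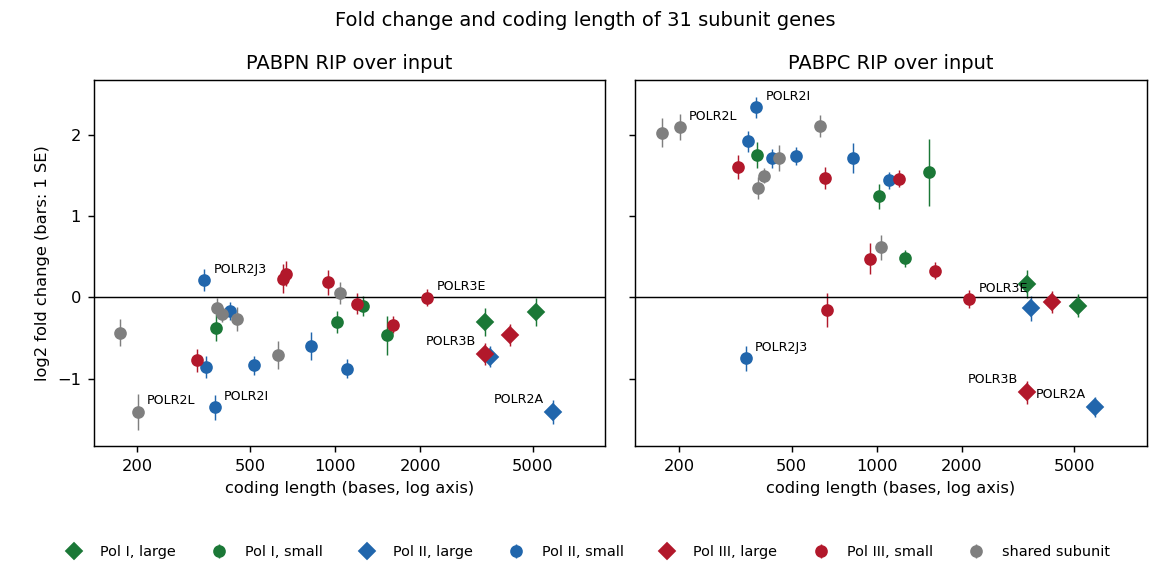
Log2 fold change with bars of 1 SE (vertical axis) against coding length in bases (log axis) for the 31 genes with PABPN (left) and PABPC (right), with diamonds for large and circles for small subunits. With PABPC the values descend from above 2 for several of the shortest coding sequences to -1.35 for POLR2A, the longest, with POLR2J3 apart at -0.75, and with PABPN both POLR2L, among the shortest, and POLR2A lie at -1.41.

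Partners of the polymerases were described in the same way, and their counts are to be read against the shares of all genes that were enriched (17.5% with PABPN, 38.4% with PABPC) or depleted (14.6% and 32.4%). Of 18 genes for general transcription factors of pol II, 6 were depleted and 1 enriched with PABPN (median -0.36), and 6 were enriched and 3 depleted with PABPC (0.36). The extremes were GTF2H3 (0.51 ± 0.10) and GTF2E2 (-0.79 ± 0.12) with PABPN and GTF2A2 (1.89 ± 0.20) and MNAT1 (-2.51 ± 0.13) with PABPC. Of 15 elongation factors of pol II, 7 were depleted with PABPN (-0.28), and 8 were enriched and 2 depleted with PABPC (0.59). They ran from CTR9 (-1.12 ± 0.14), of the PAF1 complex, to the cyclin CCNT1 (0.46 ± 0.12) with PABPN, and from CDC73 (-1.31 ± 0.14), also of the PAF1 complex, to SUPT4H1 of the DSIF complex (2.08 ± 0.14) with PABPC.

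Of 17 pol III factors, 4 were depleted with PABPN (median -0.17), and 10 were enriched and 2 depleted with PABPC (0.73). GTF3C1 (-1.07 ± 0.11) and CRCP (0.44 ± 0.13) were the extremes with PABPN, and BDP1 (-0.93 ± 0.13) and the snRNA activating subunit SNAPC2 (2.44 ± 0.19) with PABPC. CRCP encodes a pol III stalk subunit whose symbol lies outside the naming rule. Of 7 pol I factors, 1 was enriched and 1 depleted with PABPN (-0.26), TAF1C (1.56 ± 0.14) and UBTF (-0.53 ± 0.16), and 3 were enriched and 3 depleted with PABPC (-0.14), from TAF1B (-1.22 ± 0.12) to UBTF (1.02 ± 0.14). UBTF, the factor that binds the ribosomal gene promoter, was thus lower than input in one RIP and higher in the other.

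Of 12 factors in polymerase assembly or associated with pol II (RPRD1A and RPRD1B), 5 were depleted and 1 enriched with PABPN (median -0.31). With PABPC, 4 were enriched and 1 depleted (0.42). RUVBL2 (-1.13 ± 0.14) and GPN2 (0.50 ± 0.11) were the extremes with PABPN, and RPAP2 (-1.64 ± 0.13) and PIH1D1 (1.23 ± 0.12) with PABPC. Of the 3 genes of the mitochondrial polymerase, TFAM was depleted with PABPN (-0.72 ± 0.14) and enriched with PABPC (1.38 ± 0.18). POLRMT, the polymerase itself, had -0.26 ± 0.15 and 0.45 ± 0.12, and TFB2M -0.055 ± 0.21 with PABPC, none of them called.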

How the data were processed

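RNA of 3 PABPN RIPs, 3 PABPC RIPs and 3 inputs was sequenced as 75-nt single reads. The authors aligned reads to hg38 with STAR, counted them over introns and exons with featureCounts 2.0.2 (minimum overlap 20 bases), and compared each RIP with input in DESeq2, with the design formula not given in the sources used here. The deposited signal is baseMean, the mean of size-factor normalised read counts over 6 libraries. The deposited log2 columns are the fold change and its SE. The deposited score is the Wald statistic, and the deposited p-value columns are the Wald p and its Benjamini-Hochberg adjusted value. These columns hold the authors' own comparisons and are the only measurements analysed here.

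Repeated rows (123 in each table) were dropped. Calls needed a log2 fold change beyond 0.5, an adjusted p of at most 0.01 and baseMean above 50. Group means were derived from baseMean and fold change, and depth from the baseMean of genes with a single read. The difference between RIPs was tested with a two-sided normal test, with Benjamini-Hochberg adjustment over all genes. That difference test was checked on simulated fold changes, drawn independently for each RIP with the deposited SEs. The check did not model the input libraries that the real comparisons share. One gene found by the symbol rule is not reported here and was left out of every count of members. Every other member is named, and of each partner list the highest and lowest gene. Thresholds, filters, centring, the repeated rows and the definition of large were varied. Python 3.11.15, pandas 2.3.3 and scipy 1.17.1 were used. Structure came from GENCODE release 44. The members, roles, classes and lists were chosen with earlier results of these data known.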

Additional observations from a re-analysis of the deposited data

Results flagged for a closer look

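For 23 of the 31 subunit genes the log2 fold change over input differed between the RIPs by the direct test (PABPN minus PABPC, normal test over all genes). The common subunits differed by -3.51 (POLR2L), -2.82 (POLR2E), -2.46 (POLR2K), -1.98 (POLR2H) and -1.48 (POLR2F). The zinc ribbon subunits differed by -3.69 (POLR2I), -2.38 (POLR3K) and -2.13 (POLR1H). The assembly platform subunits differed by -2.78 (POLR2J), -2.31 (POLR2C), -1.71 (POLR1D) and -0.56 (POLR1C). The stalk subunits differed by -2.57 (POLR2G), -1.87 (POLR2D) and -1.54 (POLR1F). The TFIIF-like subunits differed by -2.00 (POLR1G), -1.54 (POLR3D) and -0.59 (POLR1E), and the pol III trimer by -1.24 (POLR3GL) and -0.66 (POLR3C). POLR2M differed by -2.32, POLR2B by -0.60 and POLR2J3 by 0.96.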

How the results depend on the processing

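With a threshold of 1 the count depleted with PABPN fell from 11 to 3, as it did with a Wald test against 0.5, and the count higher with PABPN from 1 to 0. Centring on the median of all genes (-0.041 with PABPN, 0.14 with PABPC) moved the PABPC medians to 0.72 for pol I, 1.57 for pol II, 0.19 for pol III, 1.58 for the shared subunits, -0.26 for the large and 1.36 for the small ones, and turned the sign of POLR3E with PABPN (0.039) and of its difference (-0.052), neither of which was called. With large defined as a deposited exonic length above the member median, the large median was -0.21 with PABPN and 0.17 with PABPC, the opposite sign, and the small median with PABPC 1.66. Leaving out the 5 genes overlapped by others, which was added after seeing the data, gave PABPC medians of 0.32 for pol I and 1.87 for the shared subunits. Centring subtracts a constant from every gene of a comparison, and leaving out or regrouping genes changes which values enter a median. No other cause of these changes was tested. Each gene was checked in each comparison under each varied setting. Of these checks, 560 kept direction and side of the threshold, and 27 kept direction but were no longer called. Many of the 560 could not have come out otherwise. Every member's baseMean lay above the raised filter, so raising or dropping the filter could not change a call over input. Keeping the last of repeated rows gave the same values, and a higher threshold cannot add a call. The 560 is therefore not a measure of robustness. No paired analysis was possible because the deposited tables hold no value per library, and for that reason no replicate was left out and no count model was run. The median SE per member was 0.14 in either comparison, and how much of it depth accounts for was not tested.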
